A study of Mus musculus with 2 samples.

Results

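The enzymes that make serine, carry its one-carbon unit on folate and make asparagine were examined in femoral bone marrow of mice aged 8 days. The 10 genes were chosen by name and function, with earlier results of these data known. They were Phgdh, Psat1 and Psph for serine synthesis and Shmt1 and Mthfd1 for cytosolic one-carbon transfer. Shmt2, Mthfd2, Mthfd1l and Aldh1l2 stood for mitochondrial one-carbon transfer, and Asns for asparagine synthesis. Of the 10, 9 were among the 19057 genes named on the array, with 18 probes in all, and Mthfd1l had no probe under that symbol and was not analysed here. The series holds 1 Illumina MouseWG-6 v2.0 bead array of Wildtype marrow and 1 array of Dnmt2-/- marrow, both made from total RNA. Dnmt2 (symbol Trdmt1) is an RNA methyltransferase that acts on a small set of transfer RNAs. How the Dnmt2 allele was made, the strain, and the number of animals behind each RNA are stated neither in the labels nor in the files.

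Serine is built from a glycolytic intermediate in 3 steps, catalysed in turn by Phgdh, Psat1 and Psph. Serine hydroxymethyltransferase then moves a carbon from serine to tetrahydrofolate, Shmt1 in the cytosol and Shmt2 in mitochondria. In mitochondria Mthfd2 oxidises that carbon, and it leaves as formate through Mthfd1l or as carbon dioxide through Aldh1l2. Mthfd1 takes up formate in the cytosol for purine and thymidylate synthesis, on which dividing marrow precursors draw. Asns makes asparagine from aspartate and glutamine. Phgdh, Psat1, Shmt2, Mthfd2, Aldh1l2 and Asns are known targets of ATF4, a transcription factor whose translation rises when the integrated stress response is active.

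The promoters of Mthfd2 and Asns are shown because these enzymes were both higher on the array labelled Dnmt2-/- in every probe and lie in the same ATF4-responsive programme. Each sequence is the 250 bases before the gene's start in RefSeq (GRCm38.p6), read 5′ to 3′ on the gene's strand, which is the minus strand for both genes. Capitals mark TGATGNAA, the core letters of the C/EBP-ATF response element that ATF4 binds, and CCAAT, the letters of the CCAAT box, each on either strand (ATTGG is CCAAT on the other strand). No match of either motif overlapped a match of the other.
Mthfd2, chr6:83317605-83317854: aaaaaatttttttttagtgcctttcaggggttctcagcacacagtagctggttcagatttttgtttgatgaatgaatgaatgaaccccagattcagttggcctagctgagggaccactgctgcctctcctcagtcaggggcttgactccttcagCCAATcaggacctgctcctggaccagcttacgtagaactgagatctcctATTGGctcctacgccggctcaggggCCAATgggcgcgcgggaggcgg
Asns, chr6:7693210-7693459: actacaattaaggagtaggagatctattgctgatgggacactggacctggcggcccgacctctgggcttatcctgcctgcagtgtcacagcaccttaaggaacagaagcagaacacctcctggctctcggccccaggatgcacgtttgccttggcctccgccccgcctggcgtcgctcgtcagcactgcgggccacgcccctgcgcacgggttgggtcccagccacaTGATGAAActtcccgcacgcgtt

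The Asns window held TGATGAAA, beginning 23 bases before the start, and no CCAAT. The Mthfd2 window held CCAAT 96 and 22 bases before the start and ATTGG 47 bases before it, and no TGATGNAA. Of the 9 members with a promoter in the table, 1 (Asns) held TGATGNAA and 6 (Phgdh, Psat1, Psph, Shmt1, Mthfd1 and Mthfd2) held CCAAT. Aldh1l2 had no promoter there and could not be shown, though its detected probes were also higher on the array labelled Dnmt2-/-. Of all 32851 promoter windows of this length, 3.45% held TGATGNAA and 33.8% held CCAAT. These are letter matches in a short window. A window without a match says nothing about elements elsewhere in the gene.

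Values are given first as the deposited signal, in intensity units, and then as a log2 ratio, Dnmt2-/- over wild type by label, after background correction and quantile normalization. In each pair of signals the first is from the array labelled wild type. A probe was called detected at a detection p-value below 0.01. Since each genotype has 1 array, the ratios carry no replicate error and no test, and they describe these 2 arrays. The background fitted to each array was 90.9 (SD 3.16) and 94.9 (SD 3.43), and 41.4% and 43.2% of 45281 probes were detected. The labels could not be checked by the targeted gene. The brightest of 4 Dnmt2 probes had signals of 112.4 and 148.8, higher on the array labelled Dnmt2-/- (log2 0.62). The only other one detected on both arrays had 106.0 and 107.6 (log2 -0.27). The remaining probes were detected only on the array labelled Dnmt2-/-. They gave 97.1 and 118.2 (log2 0.66), and 84.1 and 113.3 (log2 0.91). The labels do not place the probes relative to the change made in the gene. The arrays also differed in sex-linked transcripts, with Xist at 822.7 and 92.8 (not detected on the array labelled Dnmt2-/-), so genotype label and sex-linked expression cannot be told apart in any value below.

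Of the 9 genes with a probe, 8 were detected on both arrays and Psph on neither. On the array labelled Dnmt2-/- Mthfd2 was close to 2-fold higher, and Aldh1l2, which oxidises formyl-folate in mitochondria, was 1.45-fold higher. Asns was 1.19-fold higher. Phgdh and Psat1, which open the serine pathway, were near equal on the 2 arrays, and the cytosolic enzymes Shmt1 and Mthfd1 had log2 ratios of -0.17 and -0.32. By its brightest probe each, 1 of the 8 detected members was at least 1.5-fold higher, against 6.61% of the 9746 genes detected on both arrays, and 0 were at least 1.5-fold lower, against 5.16%. The median log2 ratio of the 8 members was -0.02, and it was also -0.02 over all 9746 genes, with 4 members above and 4 below 0. Of all 9746 genes, 48.3% lay above and 51.7% below 0.

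**Figure D1:**
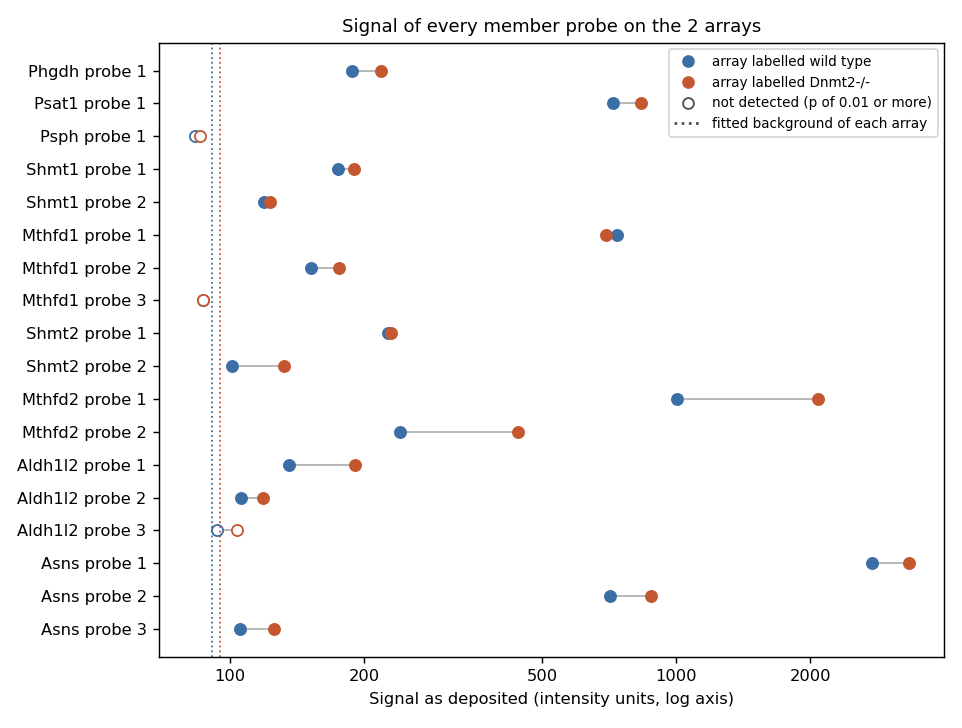
Deposited signal (intensity units, log axis) of each of the 18 member probes by array label, wild type (blue) and Dnmt2-/- (orange). Open points were not detected, dotted lines are each array's fitted background, and probes of a gene are numbered from the brightest. Mthfd2 probe 1 lies at 1002 and 2082, while the Psph probe lies below background on both arrays.

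Mthfd2, the mitochondrial methylenetetrahydrofolate dehydrogenase and cyclohydrolase, stood highest among the members. Its brightest probe (ILMN_2769136) gave signals of 1002 and 2082. The log2 ratio was 0.98, or 1.97-fold higher. The second probe (ILMN_2878548) gave 239.9 and 441.7, a log2 ratio of 0.84. Both probes were far above background on both arrays, and both were higher on the array labelled Dnmt2-/-. They differed by 0.14 on the log2 scale, while the median gap between the highest and lowest probe of a gene was 0.31 over 3375 genes with more than 1 detected probe. Among the 9746 genes Mthfd2 had the 112th highest ratio. It lies among the 3249 brightest of those genes by mean level, where 4.28% passed 1.5-fold and 0.893% passed 2-fold in this direction; over all 9746 genes 1.08% passed 2-fold upward and 0.544% downward. Over 6 ways of processing, the authors' own normalized values among them, the brightest probe ran from 1.83-fold to 2.06-fold and the second probe from 1.52-fold to 2.10-fold. In the authors' normalized values the brightest probe stood at 1294 and 2384.

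**Figure D2:**
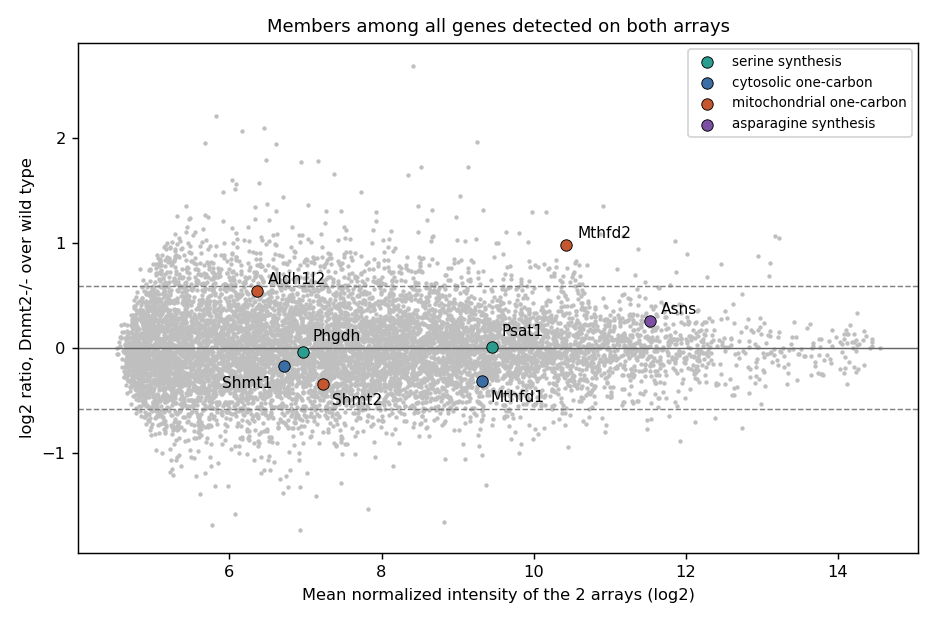
Log2 ratio, Dnmt2-/- over wild type (vertical) against the mean normalized log2 intensity of the 2 arrays (horizontal) for 9746 genes detected on both arrays (grey) and the 8 detected members, coloured by pathway step. Dashed lines mark 1.5-fold. Mthfd2 lies at 0.98 above the upper line, Aldh1l2 at 0.54 just under it, and the other members lie between -0.34 and 0.25.

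The remaining mitochondrial enzymes were less clear. Aldh1l2, the mitochondrial formyltetrahydrofolate dehydrogenase, had signals of 135.8 and 190.2 in its brightest probe, a log2 ratio of 0.54. Its second probe, at 105.6 and 118.8, gave 0.18. The third, at 93.4 and 103.9, was not detected on either array. Both detected probes were higher on the array labelled Dnmt2-/-. The ratio of the brightest ran from 1.19-fold without background correction to 1.74-fold with median scaling.

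The 2 probes of Shmt2, the mitochondrial serine hydroxymethyltransferase, went opposite ways. The brighter one (ILMN_1224942) gave 226.1 and 229.5, a log2 ratio of -0.34. The dimmer one (ILMN_2702703) gave 100.9 and 132.1, a log2 ratio of 0.83. The first is nearly level in deposited signal and turned lower after scaling, and the second lay only 3.16 background SDs above the fitted background on the array labelled wild type. Their gap of 1.17 exceeded 0.95, the 95th percentile of such gaps over the 3375 genes. No direction is given for Shmt2.

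The cytosolic enzymes had low to level ratios. Shmt1, the cytosolic serine hydroxymethyltransferase, had signals of 174.6 and 190.1 in its brighter probe and 119.5 and 122.6 in the other. The log2 ratios were -0.17 and -0.29. With median scaling the brighter probe turned to 0.09, which was -0.05 relative to the median of all genes under that scaling. Mthfd1, the cytosolic trifunctional enzyme that activates formate, had signals of 738.4 and 697.0 in its brightest probe, a log2 ratio of -0.32. It was the only member whose brightest probe had a lower deposited signal on the array labelled Dnmt2-/-. Its second probe, at 152.1 and 175.3, gave -0.01, and its dimmest was not detected on either array. Set side by side by their brightest probes, the log2 ratio of Mthfd2 exceeded that of Mthfd1 by 1.29, and by 1.16 to 1.29 over the 6 ways of processing. Their second probes lay closer together, at 0.84 and -0.01. The other mitochondrial and cytosolic pair went the other way by its brightest probes, with Shmt2 minus Shmt1 at -0.17, though the Shmt2 probes disagree.

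Of the serine synthesis enzymes, Phgdh and Psat1 were near level and Psph was not measured. Phgdh, the dehydrogenase that commits the glycolytic intermediate to serine, had signals of 187.9 and 217.8 in its only probe. Its log2 ratio was -0.04, and it was 0.23 with median scaling (0.09 relative to all genes). Psat1, the aminotransferase of the next step, had signals of 722.4 and 834.9, a log2 ratio of 0.01, and 0.16 with median scaling (0.01 relative to all genes). Both deposited signals were higher on the array labelled Dnmt2-/-, as was the median signal of that array (100.2 against 95.1). The single probe of Psph, the phosphatase of the last step, gave 83.5 and 85.8, below the fitted background of both arrays. It gave no ratio for this step, and a dim probe does not show that the transcript was absent.

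Asns, the glutamine-dependent asparagine synthetase, had signals of 2743 and 3322 in the brightest of its 3 probes, a log2 ratio of 0.25 (1.19-fold). Its second probe, at 712.3 and 877.8, gave 0.11, and its dimmest, at 105.0 and 125.4, gave 0.41. The probes pointed the same way with small ratios. Asns had the 2170th highest ratio of the 9746 genes, at percentile 77.7. The brightest probe ran from 1.16-fold to 1.19-fold over the 6 ways of processing, but with median scaling its log2 ratio was only 0.07 above the median of all genes.

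**Figure D3:**
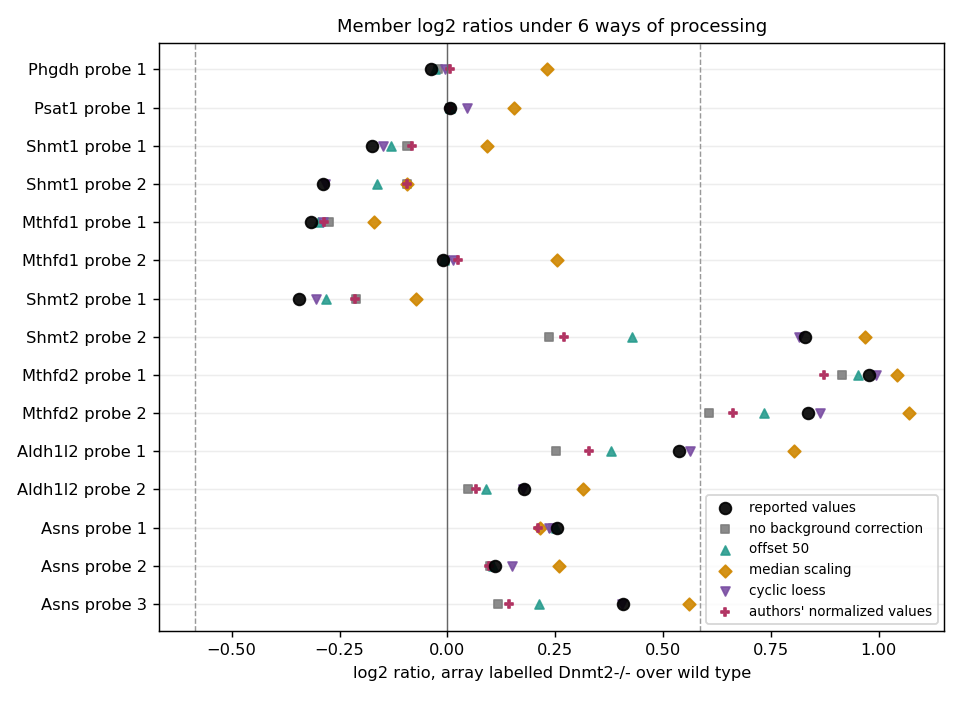
Log2 ratio (horizontal) of the 15 member probes detected on both arrays under 6 ways of processing, with dashed lines at 1.5-fold. Both Mthfd2 probes stay above 1.5-fold in each, whereas the Shmt2 probes lie on opposite sides of 0 and the brightest Aldh1l2 probe crosses 1.5-fold with median scaling.

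Genes around these enzymes were counted in 6 pathway lists, each without the members. Over all 9746 genes 6.61% were at least 1.5-fold higher and 5.16% at least 1.5-fold lower. In lists this small, 1 gene past 1.5-fold is not read as a result about the list. Among other folate genes, 12 of 25 on the array were detected on both arrays, 1 was at least 1.5-fold higher and 0 were at least 1.5-fold lower, with a median log2 ratio of -0.05. The one was Slc25a32, the carrier that brings folate into mitochondria, with signals of 103.3 and 143.3 and a log2 ratio of 0.95. Those signals are close to background, and the ratio ran from 0.30 to 1.12 over the 6 ways of processing, below 1.5-fold without background correction, with an offset of 50 and in the authors' normalized values. Of 12 detected genes of purine synthesis, which consumes formyl-folate, 0 passed 1.5-fold in either direction and the median was -0.10. Of 8 genes that use serine or glycine, 1 was at least 1.5-fold lower and 0 higher, with a median of 0.04. That gene was Gcat, which acts in the breakdown of threonine to glycine, at 223.4 and 200.2 (log2 -0.62). It did not reach 1.5-fold without background correction, with an offset of 50, with median scaling or in the authors' normalized values (nearest to 0 at -0.36). Of 4 methionine cycle genes 0 passed, with a median of 0.09. Of 11 other enzymes of non-essential amino acids, 1 was at least 1.5-fold lower and 0 higher, with a median of -0.21. It was Ass1, which joins citrulline to aspartate, at 189.3 and 156.1 (log2 -0.90). It did not reach 1.5-fold without background correction or in the authors' normalized values (nearest to 0 at -0.45).

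The list of ATF4 and its further known targets differed from these in its spread. Like the other lists, it was chosen with earlier results of these data known. Of 23 genes detected on both arrays, 9 were at least 1.5-fold higher and 0 at least 1.5-fold lower, against 6.61% and 5.16% of all genes. The median was 0.25, and 14 of the 23 lay above 0 and 9 below. The lowest, named after their values were seen, were Wars at -0.38, Nars at -0.36 and Eif4ebp1 at -0.34. The detected probes of Wars ran from -0.51 to 0.55. With median scaling the list's median lay 0.07 above that of all genes, and 10 of its genes were at least 1.5-fold higher, against 13.7% of all genes under that scaling. The highest were Trib3, a pseudokinase (193.9 and 997.9, log2 2.69, and 1.67 in its other probe), Chac1, which degrades glutathione (118.4 and 265.5, log2 1.80, from 0.88 to 2.04 over the 6 ways of processing), and Ddit3, a transcription factor also called CHOP (357.4 and 1166, log2 1.73). Atf4 itself, named here after its values were seen, had signals of 2032 and 3351, a log2 ratio of 0.69, and 1.07 in its other probe. Of the members known as ATF4 targets, Mthfd2 lay at 0.98, Aldh1l2 at 0.54, Asns at 0.25, Psat1 at 0.01, Phgdh at -0.04 and Shmt2 at -0.34, with 0.83 in the other Shmt2 probe. No test of the difference between these genes was possible with 1 array per genotype.

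**Figure D4:**
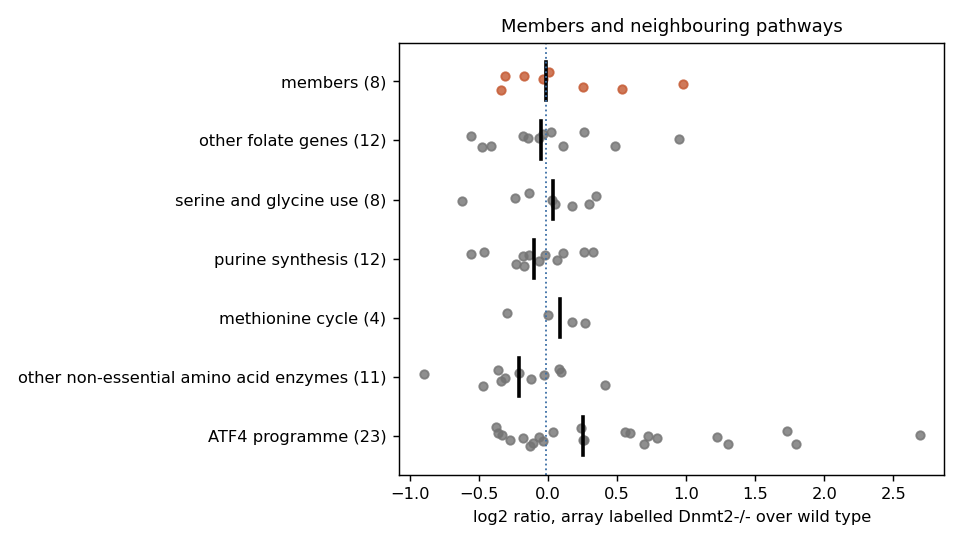
Log2 ratio of each gene detected on both arrays in the members and in 6 neighbouring lists, with the number of genes in brackets. Black bars are list medians and the dotted line is the median of all 9746 genes, at -0.02. The ATF4 list reaches 2.69 with a median of 0.25, and the other medians lie between -0.21 and 0.09.

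Markers of other tissues and of dividing cells were read beside these values. The counts past 1.5-fold stand against 6.61% higher and 5.16% lower over all 9746 genes. A marker list with 1 gene past 1.5-fold in a direction is not read as a result about those cells. Of 9 cartilage genes detected on both arrays 9 were higher on the array labelled Dnmt2-/- and 8 by at least 1.5-fold, with summed signals of 1503 and 3805, while Matn3, Cnmd, Ihh, Epyc and Ucma were not detected on either. Without background correction 5 of the 9 cartilage genes were at least 1.5-fold higher, against 1.65% of all genes under that setting. Of 18 skeletal muscle genes 17 were higher and 11 by at least 1.5-fold, with summed signals of 11548 and 20758. Of 12 osteoblast genes 10 were higher and 7 by at least 1.5-fold, with summed signals of 37450 and 46017. The part of these tissues in the Mthfd2 and Aldh1l2 values was not tested. In bulk marrow, more cells of a type and more RNA per cell cannot be told apart. Cell cycle genes had a median near level, at 0.01, but were spread unevenly around it. Of 17 detected, 10 lay above 0 and 7 below, from -0.30 to 0.58. Of these 0 passed 1.5-fold in either direction (3 were higher by that much with median scaling). Most marrow lineage markers on the array were detected on both arrays, and they differed in both directions. Of 12 erythroid genes 9 lay above 0 and 3 below, with summed signals of 69949 and 75752. At least 1.5-fold higher were 3 (Klf1, Tfrc and Rhag, chosen after their values were seen), and 0 were lower by that much. Those below 0 were Alas2 (-0.24), Sptb (-0.09) and Slc4a1 (-0.03). Of 13 neutrophil genes 1 was at least 1.5-fold lower and 0 higher, with summed signals of 110890 and 99481. Of 7 T and NK cell genes 6 were at least 1.5-fold lower and 1 higher, with a median of -0.91 and summed signals of 1743 and 1355. Without background correction 2 of these 7 were at least 1.5-fold lower and 0 higher, with a median of -0.38. Of all genes 0.893% were lower by that much under that setting. In the authors' normalized values 2 were lower and 0 higher, with a median of -0.41. At least 1.5-fold lower were also 3 of 8 macrophage genes and 4 of 11 eosinophil, basophil and mast cell genes, while 4 of 8 osteoclast genes were at least 1.5-fold higher. Of 10 B cell genes 2 were higher by that much (0 without background correction) and 0 lower, with a median of 0.26. Of 7 stem and progenitor genes 1 was higher and 1 lower, with a median of 0.34. Of 9 megakaryocyte genes 0 were higher and 1 lower, with a median of -0.18. The part of these cells in the members' values was not tested.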

How the data were processed

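Per the labels' protocols, Trizol-extracted RNA was amplified and labelled with biotin for the bead arrays. The deposited non-normalized table gives a linear signal intensity per probe without background subtraction, and a detection p-value per probe, deposited beside each array's signal. A second deposited table holds intensities normalized by the authors by an unstated method, on a linear scale and not centred, with medians of 101.8 and 101.1. It was used as an alternative. The labels and headers name no image software, scanner or genome build.

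Background was corrected with normexp (limma 3.58.1, R 4.3.3) from the detection p-values, with an offset of 16. Log2 values were quantile normalized. The offset shrinks folds of dim genes. Probes with 1 symbol in the supplied platform annotation (34885 of 45281) were named, and the brightest probe by mean of the 2 arrays stood for a gene. The steps behind the reported values were tested on simulated arrays. Only probes well above background were scored there, so the ratios of dim probes were not covered. Few probes were changed in it, equally up and down, so it does not bear on a difference shared by many genes. Groups come from the genotype labels. No test was run. Named genes are the members, Dnmt2, Xist, Eif2s3y, and in each pathway list up to 3 genes per direction with the most extreme ratios past 1.5-fold. Atf4, Wars, Nars, Eif4ebp1, Klf1, Tfrc, Rhag, Alas2, Sptb and Slc4a1 were added after their values were seen. The members and lists were chosen with earlier results of these data known. The precision is limited by the number of arrays, 1 per group.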

Additional observations from a re-analysis of the deposited data

How the results depend on the processing

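The 8 alternatives were no background correction, an offset of 50, median scaling, cyclic loess, the authors' normalized values, a detection p-value below 0.05, no detection filter, and the mean over a gene's detected probes. The count of members at least 1.5-fold higher was 1 in 7 of them and 2 with median scaling, which brought in Aldh1l2 at log2 0.80. Of all genes 6.61% were at least 1.5-fold higher in the values reported, 13.7% with median scaling and 1.65% without background correction. Median scaling moved the median of all genes from -0.02 to 0.14, and 88.2% of all genes past 1.5-fold were then higher, against 56.1%. Relative to that median Mthfd2 lay at 0.90, Aldh1l2 at 0.66 and Asns at 0.07. The count at least 1.5-fold lower was 0 in each. Mthfd2 ran from 0.87 to 1.04 and Asns from 0.21 to 0.26. The mean over probes turned Shmt2 from -0.34 to 0.24, since its probes disagree. The members' median ran from -0.02 to 0.18. The median of the methionine cycle list ran from -0.15 to 0.29 and that of the ATF4 list, relative to all genes, from 0.07 to 0.27. Without background correction Aldh1l2 was at 0.25. No paired analysis was possible because each group has 1 array, and for the same reason no array could be left out.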
